A study of Mus musculus with 67 samples.

Results

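The step from neuromesodermal progenitors (NMPs) to motor neuron progenitors (pMN) was examined in chromatin accessibility data from 9 of 67 samples of mouse embryonic stem (ES) cell-derived spinal cord progenitors, namely the 3 samples of NMPs at day 3 of differentiation and the 6 samples of pMN at day 4. All cells came from the HM1 line, a mouse ES cell line, and were differentiated without feeders, in bFGF with the Wnt secretion inhibitor LGK974 until day 2 and then in bFGF, the Wnt pathway activator CHIR99021, the TGFβ receptor inhibitor SB-431542 and the BMP receptor inhibitor DMH1 until day 3. The NMP samples were collected at this point, before any ventralizing signal, and carry 0 nM SAG in their labels. From day 3 cells received 100 nM retinoic acid (RA) with SAG, the Smoothened agonist that stands in for Sonic hedgehog (Shh), and the pMN samples were 3 from 100 nM and 3 from 500 nM SAG, pooled here. The day, RA, SAG and the end of bFGF, CHIR99021, SB-431542 and DMH1 all changed between the groups, so their parts cannot be told apart. pMN cells were fixed, stained for intracellular transcription factors (TFs) and sorted as live SOX2+ cells with OLIG2 and without NKX2.2, whereas the gate for NMPs was not given in the sources used here. The replicates of a condition are described as independent differentiations of the same line, so their spread is that between cultures of 1 ES cell line.

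NMPs sit in the tail bud and posterior epiblast, where Wnt and FGF signaling maintain them, and give rise to both the spinal cord and the paraxial mesoderm. Brachyury (T), the Cdx genes, Nkx1-2, Fgf8 and Wnt3a mark them. RA opposes FGF and Wnt and promotes neural fate, and Shh from the notochord and floor plate then assigns ventral identities, among them pMN, the OLIG2-expressing domain that makes motor neurons and later oligodendrocytes. Regions of open chromatin are read in ATAC-seq by a transposase that inserts into accessible DNA, and most regulatory elements that distinguish cell types lie away from promoters.

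Accessibility was measured by CaTS-ATAC, in which transposed nuclei of fixed cells are sorted on intracellular TFs. The values were read counts in consensus elements (peaks pooled over the whole experiment), normalized for depth and given by the authors on a log2 scale after a variance-stabilizing transformation (VST). Normalized read counts were recovered from them by inverting the transformation, and folds are ratios of their group means. An element is named here by its nearest gene in the deposited annotation and by its distance in bp from the transcription start site (TSS), and the nearest gene need not be the gene that it regulates. An element was called higher (opened) or lower (closed) in pMN at an adjusted p under 0.01 with a difference of means above 2 on the log2 (VST) scale. Differences on this scale are given ± the standard error of the fit, which is not the spread of the samples. In sorted bulk cells, a change in the share of cells with an open element and a change in accessibility per cell cannot be told apart.

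Reads in elements ranged from 16809239 to 19271426 in the 3 NMP samples and from 14866189 to 21129917 in the 6 pMN samples, against 9298160 to 29985325 over all 67. The elements had been chosen over the whole experiment, in which NMPs are 3 of 67 samples, and the NMP samples had no reads in 5856, 5665 and 3068 of 111638 elements against 269 to 682 in the pMN samples. The labels were compared with marker genes. Of the NMP markers, T had 2 of 7 tested elements called lower in pMN, Cdx1 1 of 2 and Cdx2 2 of 3, while those of Nkx1-2, Fgf8, Wnt3a and Cyp26a1 had lower values in pMN that did not pass the fold threshold, and Cdx4 had no tested element. Of the pMN markers, 2 of 6 tested elements of Olig2, 2 of 4 of Olig1 and 9 of 15 of Nkx6-1 were called higher. Of the markers of p3, the domain ventral to pMN, 3 of 5 of Nkx2-9 and 6 of 12 of Foxa2 were higher, and 1 of Foxa2 lower. Of general neural progenitor markers, 2 of 9 of Sox1, 1 of 6 of Sox2, 1 of 4 of Sox3, 2 of 5 of Hes5 and 0 of 3 of Pax6 were higher. Over all tested elements 16.1% were higher and 6.35% lower. These counts do not set pMN apart from p3.

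The sequences of 6 elements that carry the results are shown first, each as the 300 bases around the element's center, from the plus strand of the GRCm38 reference (mm10 coordinates). The first 4 opened in pMN and lie near a Shh target, ventral, neural or RA gene, and the last 2 closed and lie near a Wnt target and an NMP gene. Capitals mark matches, on either strand, to short motifs chosen after values were seen: ACAATGG for SOX factors, TAATTA for homeodomain factors, CAGCTG for an E-box, TGGGTGGTC for GLI, TTCAAAG or ATCAAAG for TCF/LEF, TGAGTCA for AP-1 and the DR5 repeat of RA receptors.
Nkx2-9, 8166 bp upstream, chr12:56621301-56621600: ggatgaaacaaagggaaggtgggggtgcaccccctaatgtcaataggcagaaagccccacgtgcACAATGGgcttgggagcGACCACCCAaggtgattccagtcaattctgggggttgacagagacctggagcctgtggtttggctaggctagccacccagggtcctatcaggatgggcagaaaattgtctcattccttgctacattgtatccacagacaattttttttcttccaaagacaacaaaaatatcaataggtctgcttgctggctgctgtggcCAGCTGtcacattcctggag
Nkx6-1, 140408 bp downstream, chr5:101524154-101524453: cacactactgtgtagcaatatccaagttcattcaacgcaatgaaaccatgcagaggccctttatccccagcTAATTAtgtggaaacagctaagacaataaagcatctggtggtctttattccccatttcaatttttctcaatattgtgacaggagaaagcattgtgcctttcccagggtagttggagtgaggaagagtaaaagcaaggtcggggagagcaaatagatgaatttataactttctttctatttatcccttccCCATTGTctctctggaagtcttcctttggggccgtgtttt
Dll1, 3656 bp downstream, chr17:15372018-15372317: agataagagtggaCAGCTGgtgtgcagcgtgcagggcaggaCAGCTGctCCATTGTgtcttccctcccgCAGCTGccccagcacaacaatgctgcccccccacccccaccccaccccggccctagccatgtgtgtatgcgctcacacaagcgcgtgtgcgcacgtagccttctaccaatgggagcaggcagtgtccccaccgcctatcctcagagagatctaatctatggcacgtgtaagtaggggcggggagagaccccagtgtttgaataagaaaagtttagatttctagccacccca
Dhrs3, 141812 bp downstream, chr4:145034740-145035039: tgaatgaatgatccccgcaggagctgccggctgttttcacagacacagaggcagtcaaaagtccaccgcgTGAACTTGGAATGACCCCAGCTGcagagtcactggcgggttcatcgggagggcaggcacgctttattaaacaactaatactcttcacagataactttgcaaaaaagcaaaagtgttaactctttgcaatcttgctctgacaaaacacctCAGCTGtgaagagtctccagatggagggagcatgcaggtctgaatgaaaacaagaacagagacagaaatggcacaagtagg
Znrf3, 30020 bp upstream, chr11:5411611-5411910: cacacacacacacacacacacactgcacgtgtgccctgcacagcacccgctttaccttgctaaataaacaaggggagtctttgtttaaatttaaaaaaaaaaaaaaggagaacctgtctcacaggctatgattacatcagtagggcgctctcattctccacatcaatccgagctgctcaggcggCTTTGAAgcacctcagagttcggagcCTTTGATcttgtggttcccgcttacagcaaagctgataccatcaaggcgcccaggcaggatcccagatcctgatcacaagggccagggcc
Cdx2, 2154 bp upstream, chr5:147309254-147309553: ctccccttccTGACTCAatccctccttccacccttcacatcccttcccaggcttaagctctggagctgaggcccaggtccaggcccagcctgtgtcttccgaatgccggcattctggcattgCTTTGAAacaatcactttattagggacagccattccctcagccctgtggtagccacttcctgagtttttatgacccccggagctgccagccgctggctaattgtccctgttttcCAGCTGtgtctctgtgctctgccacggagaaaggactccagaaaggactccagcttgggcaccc

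The Nkx2-9 window held a SOX, a GLI and an E-box match, the Nkx6-1 window a homeodomain and a SOX match, and the Dll1 window 3 E-box matches and 1 SOX match. In the Dhrs3 window a DR5 match runs directly into an E-box, so that both are part of the same run of capitals, and another E-box lies further on. The Znrf3 window held 2 TCF/LEF matches, and the Cdx2 window an AP-1, a TCF/LEF and an E-box match. The windows were chosen because they hold a match. A match is a description of the letters and was not tested as a binding site.

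Accessibility differed at many elements between day 3 NMPs and day 4 pMN, and at the thresholds used more elements opened than closed. Calls numbered 7079 among 31555 tested elements (22.4%), and 5075 of these (16.1% of all tested) were higher and 2004 (6.35%) lower in pMN. Elements that opened had a median of 17.2 normalized counts in NMPs and 291 in pMN, and a median difference of 3.40 (range 2.00 to 6.71, log2). Those that closed went from a median of 405 to one of 54.2, with a median difference of -2.52. For all 7079 called elements the samples of the groups did not overlap, but neither did they for 25983 of all tested elements (82.3%), so separation of the samples alone does not single out the called ones. At the same thresholds, most opened elements were not called between pMN and the other progenitor types of day 4, as given below.

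The balance of opening and closing depended on how the samples were put on a common scale. Opened elements were 71.7% of those called, but 83.3% after each sample was centered on its median, 81.3% with voom on the recovered reads, and 59.9% after a correction for GC content and level made together with a replicate block. The median difference over all tested elements was -0.47, against -0.05, -0.01 and -0.06 under these 3 settings, so that values near the thresholds are to be read against a general shift of that size toward NMPs. The correction for GC content and level, called the GC correction below, also removes change that elements of similar GC content and level share. A call lost under it therefore does not show an effect of GC content. At a difference above 1, 6618 elements were called higher and 8146 lower, which turned the balance. Tested elements were those whose normalized counts averaged over 100 in the 9 samples, a filter that weighed the 6 pMN samples more than the 3 NMP samples, and with both groups weighed equally 4047 elements were higher and 2793 lower (59.2% opened).

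Opened elements lay mostly away from promoters. Of the 12294 tested elements within 1000 bp of a TSS, 0.415% were called higher and 2.46% lower, whereas of the 3162 elements more than 100000 bp away 53.3% were higher and 5.63% lower. The share called higher was larger in each distance class than in the one before, with 9.26% from 1000 to 5000 bp, 14.7% to 20000 bp, 25.3% to 50000 bp and 36.9% to 100000 bp. The share called lower was highest, 11.5%, between 5000 and 20000 bp. Of 9097 intergenic elements 27.0% opened and 8.93% closed, and of 10584 intronic ones 23.0% and 7.21%. With the GC and level correction the intergenic counts were 1412 higher and 1027 lower rather than 2454 and 812, and the intronic ones 1450 and 755 rather than 2436 and 763. Opened elements lay a median of 57189 bp from the nearest TSS and 0.966% of them were annotated as promoter-TSS, against 12828.5 bp and 8.83% for closed elements and 1306 bp and 28.6% for the 24476 elements that were not called. Median GC content was 45.7% in opened, 52.9% in closed and 55.4% in uncalled elements. The part of GC content in these results was not tested beyond the correction given above, which cannot separate it from change that elements of similar GC content share. Under it 2990 elements were higher and 1998 lower.

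**Figure D1:**
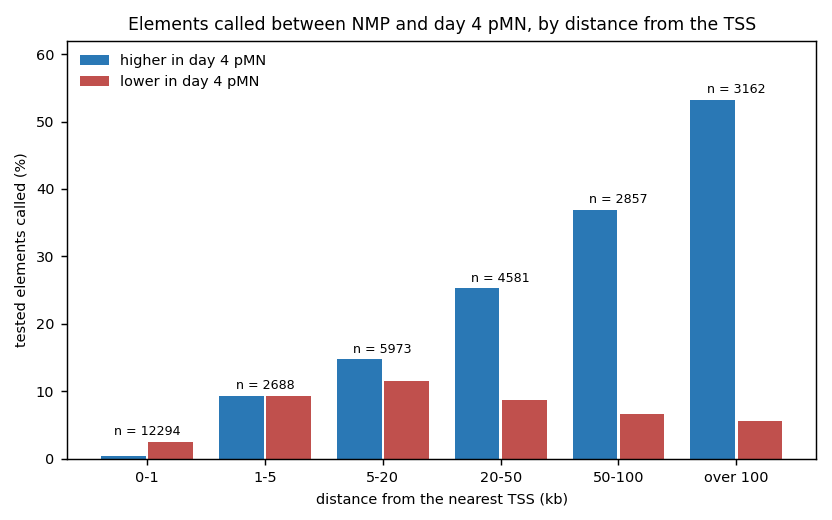
Share of tested elements called higher (blue) or lower (red) in day 4 pMN than in day 3 NMPs, in percent, by distance in kb from the nearest TSS, with the number tested (n) above each pair of bars. The share called higher goes from 0.415% within 1 kb to 53.3% beyond 100 kb, while the share called lower stays between 2.46% and 11.5%.

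The same reads were also summed into a promoter share for each sample, which is not evidence separate from the calls. Elements annotated as promoter-TSS took 37.3% ± 1.14 (SD, n = 3) of the reads in elements in NMPs and 34.1% ± 0.960 (SD, n = 6) in pMN. The elements had been chosen over all 67 samples, of which 3 are NMPs. The part of that choice in the share was not tested. The NMP samples, from 36.0% to 38.2%, did not overlap the pMN samples, from 33.0% to 35.3%. The difference of -3.24 percentage points gave p = 0.0119 in an exact two-sided permutation test over samples, the smallest p that the 84 assignments allow. That test counted the 6 pMN samples as independent, though same-numbered samples of both SAG concentrations had similar shares. At 100 and 500 nM these were 33.4% and 33.0%, 35.2% and 35.3%, and 33.8% and 33.7% in replicates 1 to 3. The p is therefore smaller than independent cultures alone would give.

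Elements near 203 genes were grouped into 15 lists by pathway or cell type, with 679 tested elements, of which 134 were higher and 68 lower. The largest shares of opened elements were those of ventral progenitor identity (36 of 91) and the Hedgehog pathway (21 of 54), and the largest shares of closed elements those of the NMP and posterior growth zone list (16 of 43) and the Wnt response (16 of 54). These counts stand against 16.1% higher and 6.35% lower over all tested elements. Few promoters of the same genes were called. For the 177 list genes whose nearest element lay within 2000 bp of the TSS, 3 of these nearest elements were higher and 14 lower (95 and 342 of all 13068 tested elements within 2000 bp), whereas of the 409 list elements beyond 5000 bp 121 were higher and 45 lower (4775 and 1450 of all 16573).

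**Figure D2:**
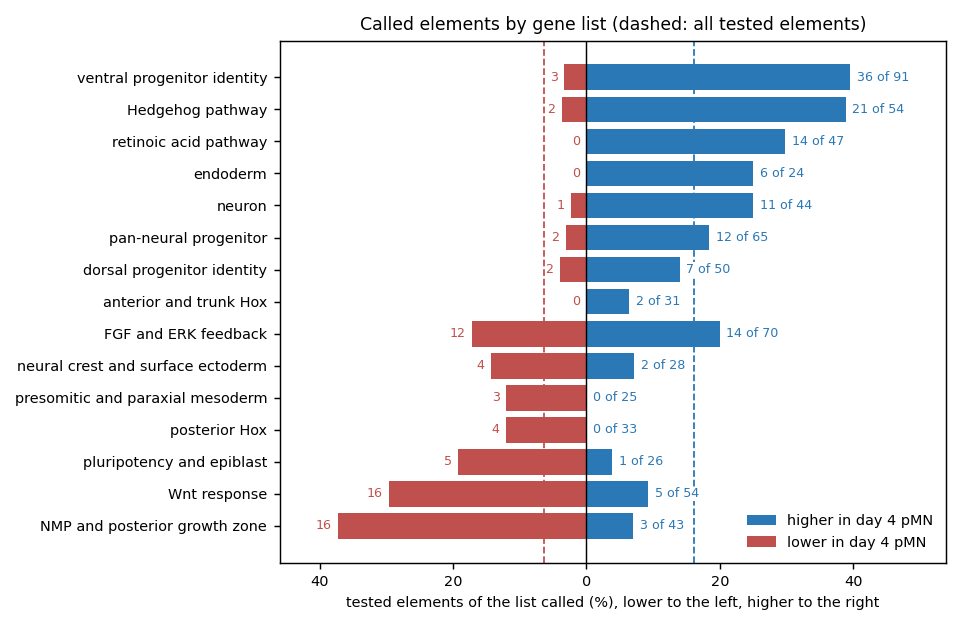
Share of the tested elements of each gene list called lower (red, to the left) or higher (blue, to the right) in day 4 pMN than in NMPs, in percent, with the counts beside the bars and the shares over all tested elements, 6.35% and 16.1%, as dashed lines. Ventral identity (36 of 91) and the Hedgehog pathway (21 of 54) have the longest bars to the right, NMP and posterior growth zone (16 of 43) and Wnt response (16 of 54) the longest to the left.

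Near genes of NMPs more elements closed than opened. In the NMP and posterior growth zone list 16 of 43 tested elements were lower and 3 higher, with a median difference of -1.49, and the summed level of the tested elements went from between 29949 and 34867 normalized counts in NMPs to between 8099 and 10088 in pMN. T encodes Brachyury, the T-box factor of the primitive streak and tail bud. Its promoter element (chr17:8432253-8435075) had 1056, 1280.0 and 1188 normalized counts in the NMP samples and between 166 and 262 (median 227) in pMN, a difference of -2.38 ± 0.16 (log2, limma adjusted p = 1.27e-09). This difference was -1.95 with voom, -1.96 after centering and -1.55 with the GC correction, below the threshold in each. An element 19576 bp upstream of T, inside an intron of T2, was -2.85 and kept its call under these settings.

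Cdx1 and Cdx2 encode caudal-type homeodomain factors that act upstream of posterior Hox genes. The Cdx1 element 581 bp downstream of the TSS, in intron 1, had 2171, 2267 and 2449 normalized counts in NMPs and between 103 and 152 (median 121) in pMN. With a difference of -4.11 ± 0.12 it was 18.8-fold lower in pMN (adjusted p = 2.73e-13), and every pMN sample lay far under every NMP sample. At Cdx2 an intronic element 1279 bp downstream of the TSS (-2.49 ± 0.14) and the upstream element whose sequence is shown above (-2.74 ± 0.19) both fell. The latter had 532, 471 and 669.9 normalized counts in NMPs and between 48.2 and 104 (median 70.1) in pMN, and with the GC correction its difference was -1.92, short of the threshold.

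Other members closed strongly at distal elements. Grsf1 encodes an RNA-binding protein, and 4 of its 5 tested elements were lower, the most changed being 8697 bp upstream with 590.3, 947 and 1032 normalized counts in NMPs and between 9.18 and 25.6 (median 13.6) in pMN (55.7-fold, difference -5.02 ± 0.22). The promoter element of Wnt8a, a Wnt ligand of the posterior epiblast, went from 1302, 1795 and 1548 to between 106 and 163 (median 138) (-3.39 ± 0.15). Sp5 encodes a zinc finger factor that is a direct Wnt target, and its promoter element (-2.48 ± 0.12) and an element 30699 bp upstream (-3.77 ± 0.23) were both lower. For Nkx1-2 (-1.83 ± 0.11), Wnt3a (-1.98 ± 0.19), Fgf8 (-1.56 ± 0.17) and the RA-degrading enzyme gene Cyp26a1 (-1.20 ± 0.14), the most changed element was lower in pMN with non-overlapping samples but within the threshold of 2. The 3 higher elements of this list were 2 of Wnt5b, a Wnt ligand, and 1 of the ephrin receptor gene Epha5. At Wnt5b the element 13343 bp downstream of the TSS rose by 4.04 ± 0.18.

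The Wnt response list, made of feedback and target genes of β-catenin signaling, had 16 of 54 elements lower and 5 higher (median difference -0.99). Znrf3 encodes a ubiquitin ligase that removes Wnt receptors. Its element 30020 bp upstream of the annotated TSS, in intron 1, had 558, 1006 and 844 normalized counts in NMPs and between 10.7 and 24.1 (median 17.3) in pMN, a 45.4-fold decrease (difference -4.78 ± 0.21, adjusted p = 1.14e-11). Axin2 encodes a scaffold of the β-catenin destruction complex and is a common readout of the pathway. An element 13371 bp upstream of it went from 461, 757 and 731 normalized counts to between 10.8 and 18.4 (median 15.2) (-4.62 ± 0.18), and another 10381 bp upstream fell by 3.42. Another Axin2 element, 75077 bp downstream, opened (3.60 ± 0.20), and the element at the TSS was -0.50 ± 0.09, within the threshold.

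Nkd1, a Wnt antagonist, had 3 of 6 elements lower, among them one 70020 bp upstream with 938, 1312 and 1221 normalized counts in NMPs and between 32.2 and 59.7 (median 41.5) in pMN (-4.39 ± 0.16). In the most changed elements of Znrf3, Axin2, Nkd1, Sp5 and Grsf1, replicate 1 was the lowest of the NMP samples, though still above every pMN sample. Without this replicate 7210 elements were called in all, and these elements among them. Tcf7l1, a TCF factor that mainly represses, had elements that moved both ways, 3 higher and 2 lower of 8. Of these the intronic element 58373 bp downstream of the TSS opened from 32.7, 28.3 and 31.2 to between 1023 and 1234 (median 1147) normalized counts (4.75 ± 0.10).

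FGF pathway genes moved in both directions, with 14 of 70 elements higher and 12 lower and a median difference of -0.22. These are 20% and 17.1%, against 16.1% and 6.35% over all tested elements. The element 16375 bp upstream of Etv4, an ETS factor induced by FGF, closed from 208, 419 and 463 to between 6.45 and 13.8 (median 8.85) normalized counts (-4.12 ± 0.24). Spry4, a feedback inhibitor of receptor tyrosine kinases, had 3 of 5 elements lower and 1 higher, the largest being 30563 bp downstream (-3.20 ± 0.19, or -1.69 with the GC correction). In contrast, at Dusp6, which encodes an ERK phosphatase, 3 of 8 elements were higher, including one 2367 bp downstream of the TSS with 36.4, 63.4 and 56.0 normalized counts in NMPs and between 659 and 998 (median 781) in pMN (3.70 ± 0.16). The receptor gene Fgfr2 likewise had 3 of 6 higher, led by an intronic element at 4.41 ± 0.23. The number of lower elements in this list was 6 after centering, 7 with voom and 13 with the GC correction, under which 9 were higher.

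**Figure D3:**
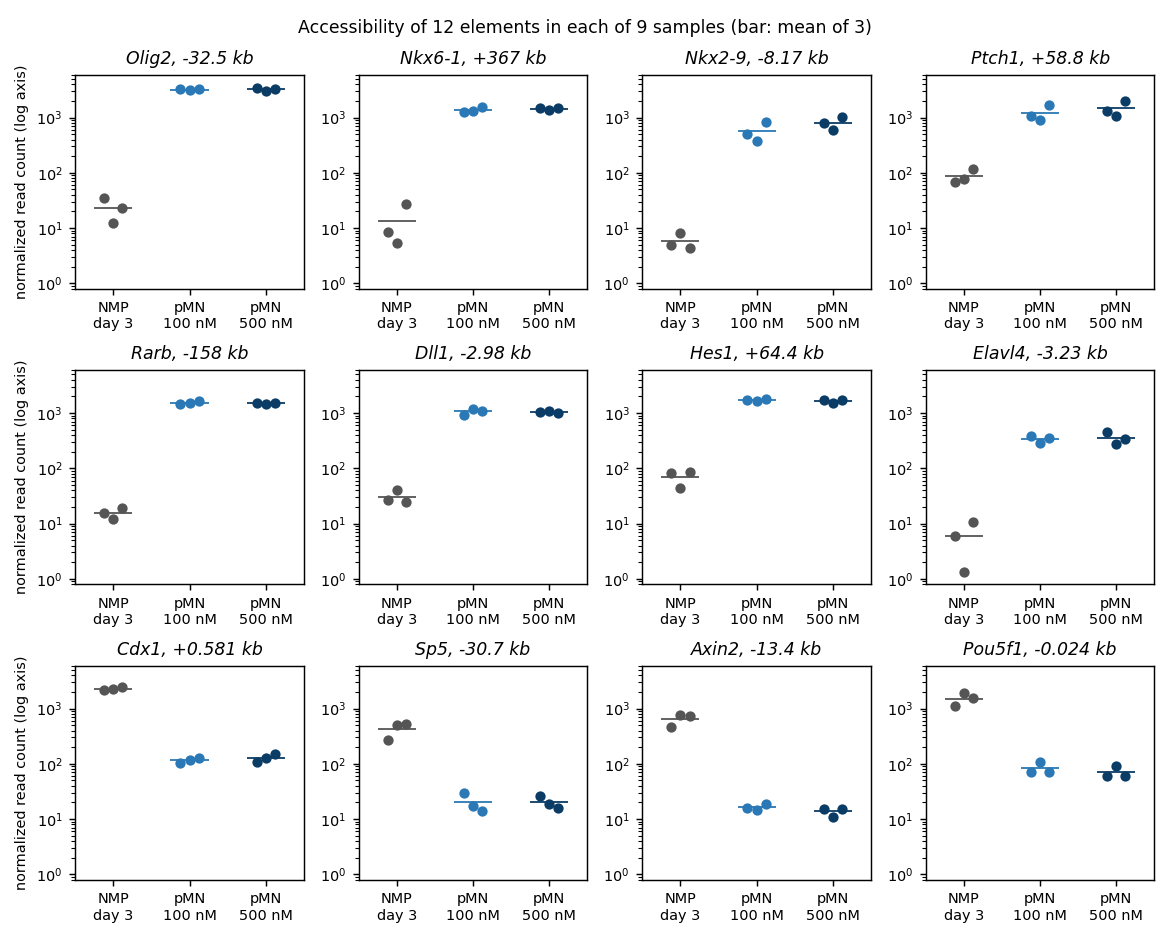
Normalized read counts (log axis) of 12 elements in the 3 day 3 NMP samples, the 3 day 4 pMN samples at 100 nM SAG and the 3 at 500 nM SAG, each panel titled by the nearest gene and the distance from its TSS in kb. Points are samples and horizontal bars the mean of 3. The 8 elements in the top rows are higher and the 4 in the bottom row lower in every pMN sample than in every NMP sample.

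In the list of pluripotency and epiblast genes 5 of 26 tested elements were lower and 1 higher in pMN, with a median difference of -1.27 and a summed level that went from between 12756 and 14747 normalized counts in NMPs to between 4536 and 5598 in pMN. The shares were 19.2% lower and 3.85% higher, against 6.35% and 16.1% over all tested elements. Pou5f1 encodes OCT4, and its promoter element (chr17:35503751-35508265) had 1108, 1898 and 1532 normalized counts in NMPs and between 59.0 and 107 (median 71.1) in pMN, a 19.7-fold decrease (difference -4.09 ± 0.19, adjusted p = 2.70e-11). An intronic element of Tfcp2l1, a factor of naive pluripotency, fell from 309, 369.6 and 340.3 to between 7.37 and 13.8 (median 10.8) (-4.03 ± 0.18). The opened element of this list was 149203 bp upstream of Klf4 (4.37 ± 0.17), a zinc finger factor that is also expressed outside ES cells.

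In the presomitic and paraxial mesoderm list 3 of 25 elements were lower and 0 higher, 2 of them of Foxc1, a forkhead factor of the paraxial mesoderm, and 1 of Tcf15, a bHLH factor of the somites. The shares were 12% lower and 0% higher, against 6.35% and 16.1% over all tested elements. The element 168222 bp downstream of Foxc1, in an intron of Gmds, went from 292, 482 and 459.9 to between 9.75 and 19.7 (median 16.5) normalized counts (-3.95 ± 0.20), and that of Tcf15 from 498, 405 and 372 to between 60.1 and 76.7 (median 65.0) (-2.47 ± 0.14, or -1.33 with the GC correction, which left 1 lower and 1 higher in this list). The elements of the mesoderm regulator genes Tbx6, Mesp1, Mesp2 and Hes7 were not called. The summed level of the list was between 15173 and 17715 in NMPs and between 6372 and 8076 in pMN.

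Posterior Hox genes, which pattern the trunk and tail, had 4 of 33 elements lower (12.1%, against 6.35% over all) and 0 higher (median -1.21). They lay near Hoxa10 (-2.13 ± 0.11), Hoxd9 (-2.11 ± 0.16), Hoxb13 and Hoxc10. The Hoxa10 element had 836, 699 and 686 normalized counts in NMPs and between 147 and 178 (median 156) in pMN, and the groups were well apart, but all 4 calls of this list were lost after centering, with voom and with the GC correction (0 of 33 in each), where the Hoxa10 difference was -1.71, -1.74 and -0.98. Anterior and trunk Hox genes had 2 of 31 elements higher (6.45%, against 16.1% of all tested elements) and 0 lower, the 2 higher ones being near Hoxc4. The one 31338 bp downstream of Hoxc4 had 9.70, 13.5 and 15.1 normalized counts in NMPs and between 227 and 355 (median 323) in pMN (3.74 ± 0.16), and it was higher still in later pMN, between 912 and 1109 in 5 samples at day 5 and between 1175 and 1303 in 4 at day 6. An element 6418 bp downstream of Hoxb4 was 1.10 ± 0.13 at day 4, within the threshold, with between 2629.5 and 3421 normalized counts at day 5 against a median of 799 at day 4.

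Ventral identity genes had the largest share of opened elements of the 15 lists. Of 91 tested elements of this list, 36 were higher and 3 lower, with a median difference of 0.86 against -0.47 over all elements, and 11 of the 14 genes with an element had at least 1 higher. Olig2, the bHLH factor that defines pMN, had the fourth largest increase of all tested elements. This element, 32473 bp upstream (intergenic), had 35.2, 12.1 and 22.6 normalized counts in the NMP samples and between 3079.5 and 3483 (median 3229.7) in the pMN samples. It was 139-fold higher in pMN, with a difference of 6.59 ± 0.16 on the VST scale (adjusted p = 4.67e-14). The VST compresses low counts, so differences on it are smaller than the log2 ratio of normalized counts for elements that were near closed in a group. At the Olig2 gene itself, an element covering intron 1 was already open, with 1158, 1191 and 993 normalized counts in NMPs and between 1204 and 1510.1 (median 1339.7) in pMN (0.28 ± 0.09), so that distal and proximal elements of the same gene behaved differently.

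Olig1, the neighbor and paralog of Olig2, showed the same contrast. Its element 31873 bp downstream opened from 15.8, 5.40 and 12.9 to between 592 and 859 (median 818) (5.13 ± 0.18), while the element over its exon was -0.50 ± 0.14. The homeodomain gene Nkx6-1, expressed from p2 to p3, had 9 of 15 elements higher and none lower, between 8798 and 367191 bp downstream of the TSS. The farthest had 8.49, 5.40 and 26.9 normalized counts in NMPs and between 1243 and 1546 (median 1429) in pMN (5.96 ± 0.21, adjusted p = 1.19e-12), and the one 140408 bp downstream, shown above, had a difference of 5.39 ± 0.15. The Nkx6-1 promoter element, at 2028, 2184 and 1993 in NMPs and between 2037 and 2240.3 (median 2193) in pMN, did not differ beyond the spread of the samples (0.07 ± 0.07, adjusted p = 0.353).

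Nkx6-2 (5.18 ± 0.21), Irx3 (5.54 ± 0.29) and the proneural gene Neurog2 (4.55 ± 0.15) each had a distal element that opened by a comparable amount. Irx3, a homeodomain gene that is expressed dorsal to pMN and opposes Olig2, had 5 of 13 elements higher and 1 lower, and its most changed one, 74609 bp upstream, went from 90.9, 14.8 and 52.8 to between 2072 and 2961 (median 2834) normalized counts. Elements of genes of domains other than pMN also opened. Dbx1, which marks p0, had 1 of 8 elements higher and 1 lower, the latter 51622 bp upstream (-2.19 ± 0.14). The higher one, 59780 bp upstream, went from 8.49, 14.8 and 7.54 to between 189 and 253 (median 216) (3.48 ± 0.16). Foxa2, the forkhead factor of the floor plate and an early factor of p3, had 6 of 12 higher and 1 lower, with 43.6, 41.8 and 70.0 normalized counts in NMPs and between 831 and 1478 (median 1152) in pMN at the element 78227 bp downstream (4.21 ± 0.17). Pax6, expressed in most progenitor domains but not in p3, had no called element, and its most changed one was 1.63 ± 0.09. Nkx2-2, which marks p3, had no element annotated to it among those with values.

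In the Hedgehog pathway list 21 of 54 elements were higher and 2 lower (median 0.80), or 12 and 4 with the GC correction. Ptch1, the Shh receptor and a direct target that is induced as negative feedback, had 9 of 11 elements higher and none lower, from 27936 bp upstream to 66664 bp downstream of the annotated TSS. The element 58841 bp downstream had 67.9, 78.2 and 116 normalized counts in NMPs and between 905 and 2002 (median 1205) in pMN (3.73 ± 0.22, adjusted p = 3.31e-10). Hhip, a Shh-binding inhibitor that is also a target, opened 36.4-fold at an intronic element (18.2, 16.2 and 12.9 normalized counts in NMPs, between 491 and 662 (median 576) in pMN). Gas1, a coreceptor that is highest where Shh signaling is low, had 3 of 6 elements higher, the largest 3.85 ± 0.13.

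The transcriptional effectors differed from each other. Gli1, the activator whose expression depends on the pathway, had 1 tested element, over its intron 2, with 1665, 1744 and 1756 normalized counts in NMPs and between 3192 and 3762 (median 3402) in pMN. The difference was 1.01 ± 0.07, with separate groups, but within the threshold. Gli3, the main repressor, had 4 of 8 elements higher and 1 lower. The element 242069 bp upstream of Gli3 had 1.21, 0 and 2.15 normalized counts in NMPs, 3 reads in all, and between 164 and 255 (median 199) in pMN (4.57 ± 0.20, or 1.19 with the GC correction). The one 68406 bp upstream closed (-3.65 ± 0.19).

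RA pathway genes, whose ligand was added with SAG, had 14 of 47 elements higher and 0 lower (median -0.39), or 9 higher and 1 lower with the GC correction. Without it the shares were 29.8% and 0%, against 16.1% and 6.35% over all tested elements. Rarb encodes an RA receptor and is a classical RA target. Both of its tested elements rose, the one 158101 bp upstream in an annotated Rarb intron from 15.8, 12.1 and 19.4 to between 1431 and 1661 (median 1514) normalized counts (5.83 ± 0.11, 96.5-fold, adjusted p = 1.45e-14). The one near the TSS went from 371, 306 and 246 to between 1186 and 1565 (median 1405) (2.14 ± 0.12), and it was 1.99 without NMP replicate 3 and 1.86 with the GC correction, below the threshold in both.

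Crabp1, an RA-binding protein of the cytoplasm, opened 4980 bp upstream (3.91 ± 0.12) with 15.8, 16.2 and 15.1 normalized counts in NMPs, while its intron 1 element was -0.73 ± 0.14. Cyp26b1, which degrades RA, was one of the few list genes whose promoter element opened, from 27.9, 40.5 and 40.9 to between 205 and 320.0 (median 249) (2.48 ± 0.17). Dhrs3, a retinaldehyde reductase induced by RA, rose at the element with the DR5 match, 141812 bp downstream in an intron of Vps13d. It had 24.2, 20.2 and 60.3 normalized counts in NMPs and between 285 and 432 (median 334) in pMN (3.03 ± 0.23), with NMP replicate 3 the highest of the NMP samples. An intronic element of Aldh1a2, the main RA-synthesizing enzyme, rose from a mean of 6.15 normalized counts in NMPs to 192 in pMN (3.65 ± 0.19). With the GC correction its difference was 0.28, and the cause of this loss was not tested.

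Pan-neural progenitor genes had 12 of 65 elements higher and 2 lower (median 0.10). These are 18.5% and 3.08%, against 16.1% and 6.35% over all tested elements, so the share higher was near that over all. The SOXB1 genes, which hold neural progenitors in an undifferentiated state, each had at least 1 opened distal element. They were 3.80 ± 0.14 at 14322 bp downstream of Sox1, 3.02 ± 0.21 at 29603 bp downstream of Sox2 and 3.53 ± 0.11 at 93981 bp downstream of Sox3. The Sox1 element had 24.2, 24.3 and 16.2 normalized counts in NMPs and between 379.7 and 534 (median 461) in pMN, and in day 6 pMN it was back to between 73.6 and 147. With the GC correction the Sox2 difference was 0.20 and the Sox3 difference 1.83, both short of a call. The Sox2 promoter element, open in both groups, was 0.28 ± 0.07.

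Elements of the Notch pathway genes Dll1, Hes1 and Hes5 opened as well, while 0 of 3 tested elements of Notch1 were called. Dll1, a Notch ligand, had an element 2975 bp upstream that went from 26.7, 40.5 and 24.8 to between 921 and 1206 (median 1066) normalized counts (4.67 ± 0.13, adjusted p = 1.35e-13), and the downstream element shown above rose by 2.51 ± 0.17. The Notch effector genes Hes1 and Hes5 had differences of 4.41 ± 0.15 and 3.10 ± 0.19 at distal elements, and within the threshold at the promoters. The 2 closed elements were both near Pou3f1, a POU factor of the epiblast and early neural plate, with 513, 496 and 392 normalized counts in NMPs and between 47.0 and 65.8 (median 53.9) in pMN at the element 11118 bp upstream (-2.82 ± 0.15).

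Neuronal genes are markers of cells that the SOX2+ gate should leave out. In this list 11 of 44 elements were higher and 1 lower (7 and 1 with the GC correction), with a median difference of -0.64, and the summed level was between 18402 and 21168 normalized counts in NMPs and between 15868 and 18366 in pMN. The shares were 25% higher and 2.27% lower, against 16.1% and 6.35% over all tested elements. All 4 tested elements of Elavl4, an RNA-binding protein of neurons, were higher. The one 3226 bp upstream went from 6.06, 1.35 and 10.8 to between 274 and 452 (median 342) normalized counts (4.52 ± 0.22). The promoter element, with 141, 175 and 135 in NMPs and between 560.5 and 742 (median 645) in pMN (2.01 ± 0.12), lay at the threshold and was -0.12 with the GC correction. An element 23653 bp downstream of the proneural gene Neurod4 rose by 4.67 ± 0.16, while those of Tubb3, Isl1, Lhx3 and Stmn2 were not called. Whether a few differentiating cells took part in these differences was not tested.

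Dorsal identity genes had 7 of 50 elements higher and 2 lower (median -0.81). These are 14% and 4%, against 16.1% and 6.35% over all tested elements, so neither share was above that over all. At Pax3, a paired-box factor of the dorsal neural tube, an intronic element rose from 32.7, 31.0 and 43.1 to between 346 and 441 (median 363) (3.04 ± 0.13), whereas the element over exon 1 was -1.36 ± 0.15, lower in pMN within the threshold. Atoh1, a bHLH factor of the most dorsal progenitors, had 2 of 5 elements higher and none lower, among them one 120411 bp downstream (3.54 ± 0.17), with its promoter element at -1.10 ± 0.10, lower in pMN within the threshold. Endoderm genes had 6 of 24 elements higher and 0 lower (25% and 0%, against 16.1% and 6.35% over all tested elements). With the GC correction 2 were higher and 1 lower. Among the 6 were elements of Foxa1, Gata6 and Sox17. That of Foxa1, a forkhead gene of the endoderm that the floor plate also expresses, had 6.06, 10.8 and 17.2 normalized counts in NMPs and between 307 and 488 (median 363) in pMN (4.16 ± 0.19, or 1.34 with the GC correction). The summed level of the endoderm list was between 9743 and 11536 in NMPs and between 7179 and 9523 in pMN.

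Neural crest and surface ectoderm genes had 2 of 28 elements higher, both of Ets1, and 4 lower, of the keratin genes Krt8 and Krt18 and of Grhl3. These are 7.14% and 14.3%, against 16.1% and 6.35% over all tested elements. The lower ones numbered 1 after centering and 2 with voom or the GC correction. Krt18 went from 840.0, 1097 and 783 to between 40.8 and 75.7 (median 52.7) normalized counts 11011 bp upstream (-3.80 ± 0.17). Ets1 had 75.2, 79.6 and 219 in NMPs, replicate 3 being well above the others, and between 513 and 752 (median 669) in pMN (2.42 ± 0.24, or 1.16 with the GC correction). The defining crest genes Sox10, Foxd3 and Tfap2a had no called element, and the summed level of the list was between 12154 and 13577 in NMPs and between 6204 and 7223 in pMN.

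The counts of some lists depended on the scaling beyond what is given above. After centering, 11 rather than 16 elements of the Wnt response, 1 rather than 3 of ventral identity and 0 rather than 2 of dorsal identity were lower. With the GC correction 1 rather than 3 elements of the NMP list, 28 rather than 36 of ventral identity and 0 rather than 2 of the crest and ectoderm list were higher. In the NMP list between 12 and 13 elements were lower under the 3 settings, against 16. In the RA, FGF, neuron, dorsal, endoderm and anterior Hox lists more elements were higher than lower although the median difference was below 0, as it was over all tested elements.

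The largest changes of all lay mostly near genes outside these lists. The 10 largest increases ran from 6.35 to 6.71 and lay between 11274 and 310469 bp from the nearest TSS. Robo2 encodes an axon guidance receptor, and an element in its intron 1 had 6.06, 12.1 and 1.08 normalized counts in NMPs and between 1449 and 1943 (median 1565) in pMN (6.71 ± 0.20, adjusted p = 3.00e-13). After it came elements near 4930412B13Rik (6.70), the TNF receptor family gene Tnfrsf19 (6.62), Olig2, Tox (6.49), H2afy3 (6.45), Nbea (6.44), Mir3092, Gpat3 and Agtr1a. These elements were near closed in NMPs, with at most 35.2 normalized counts in any NMP sample, at Olig2, and 3.64, 2.70 and 3.23 at Nbea.

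The 10 largest decreases ran from -4.86 to -5.48. An intronic element of Pdgfrl, a gene related to PDGF receptors, went from 542, 928 and 689 to between 3.22 and 9.18 (median 5.32) normalized counts (122-fold, adjusted p = 2.58e-12), and an element upstream of Tmem145, in an exon of Prr19, from 507, 777 and 764 to between 1.07 and 11.0 (median 6.14) (-5.44 ± 0.25). Tfap2c, an AP-2 factor of the early ectoderm and germ line, closed 27835 bp downstream with 707, 781 and 1000.5 normalized counts in NMPs and between 10.3 and 17.9 (median 14.4) in pMN. Elements near Celf4 (-5.24), Chd6 (-5.08), Hunk (-5.01), Ywhaz (-4.91), Naa30 (-4.88), Gm51271 (-4.86) and the Grsf1 element completed the 10. In all 10 the lowest NMP sample was replicate 1, and every pMN sample was below it.

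The 6 pMN samples came from 2 SAG concentrations, and whether these differed bears on pooling them. Between 100 and 500 nM SAG, 0 of 29915 elements were called by limma (0%) with or without a replicate block, with 230 at an unadjusted p under 0.05, or 3739 with the block. Same-numbered samples of both concentrations deviated together from their group means (r from 0.759 to 0.784 across elements), so the 6 pMN samples are not 6 independent ones, whereas the tests above treat them as such. With 1 concentration at a time against NMPs, 6867 elements were called for 100 nM (58.8% of them higher) and 6808 for 500 nM (59.2% higher). For the Olig2 element the difference between 500 and 100 nM was 0.03 ± 0.04 with the block. For the Ptch1 element 58841 bp downstream it was 0.28 ± 0.25 without the block and 0.28 ± 0.04 with it (adjusted p = 8.35e-04), well within the threshold of 2. Its normalized counts went from 1062, 905 and 1674 at 100 nM to 1327, 1084 and 2002 at 500 nM in replicates 1 to 3, higher at 500 nM in all 3 pairs. The Nkx2-9 element 8166 bp upstream differed by more, 0.52 ± 0.07 with the block (limma adjusted p = 9.26e-05). It was 1.58-, 1.59- and 1.21-fold higher at 500 nM in replicates 1 to 3. At an adjusted p under 0.01 and any size, 149 elements (0.498%) differed with the block (79 higher and 70 lower at 500 nM, none by more than 0.79) and 0 without it.

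Neural progenitors (NPs) of the neighboring domains were sorted at day 4 too, p0-1 and p2, which lie dorsal to pMN, and p3, which lies ventral to it. Comparisons with them use the same pMN samples, so their values are set beside those against NMPs and not counted as separate evidence. Against p0-1 (6 samples from 0 and 10 nM SAG) calls numbered 113 among 29762 elements (0.38%), and pMN was higher at 111 (0.373%). Against p2 (6 samples from 10 and 100 nM) 2 of 29912 were called, both higher in pMN (0.00669%), and against p3 (5 samples from 100 and 500 nM) 249 of 29636 (0.84%), of which 224 were higher in pMN (0.756%). At an unadjusted p under 0.05 there were 7093, 4335 and 11082. Among elements opened from NMPs, those called higher in pMN were 104 of 5040 tested against p0-1 and 2 of 5074 against p2. Against p3 they were 206 of 5049. The opened elements were chosen for high values in the same pMN samples, so these counts are a description. Replicates 1 and 2 of p3 at 100 nM had the fewest reads of all 67 samples, 9298160 and 9577692. They had no reads in 3336 and 2430 elements, and p0-1 replicate 3 at 10 nM had none in 3263, against 269 to 682 in the pMN samples. The part of these samples in the counts higher in pMN was not tested beyond leaving out 1 sample at a time. The median level of the elements opened from NMPs was 8.24 on the VST scale in both pMN conditions and between 7.70 and 8.22 in the conditions of the other types, against 4.83 in NMPs.

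The element with the largest difference to p0-1 lay near Nkx2-9, a target of Shh in the ventral neural tube. This element, 8166 bp upstream with SOX and GLI matches, had 4.85, 8.09 and 4.31 normalized counts in NMPs, between 14.4 and 41.3 in p0-1, between 55.5 and 369.6 in p2, between 438 and 759.9 in p3 and between 370.4 and 1015 in pMN. The pMN samples were above all p0-1 samples (4.30 ± 0.26, adjusted p = 1.42e-07) and overlapped those of p3. The Ptch1 element 58841 bp downstream also differed, with between 69.8 and 220.4 in p0-1, between 262 and 1257 in p2 and between 1238 and 1989.6 in p3 (3.32 ± 0.26 between pMN and p0-1). An element 9968 bp downstream of Foxa2 (3.25 ± 0.22), one in an intron of Nxph1 (3.51 ± 0.19) and one in intron 1 of Ret (3.21 ± 0.25) were also among the 10 largest, the others being near Gm51425, 1700024I08Rik, Gm815 and Spata19. The 2 lower elements were near Sfrp5, a secreted Wnt antagonist (-2.62 ± 0.27), and 2310008N11Rik (-2.29 ± 0.27).

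The pMN-defining gene itself differed by less. The distal Olig2 element was open in every NP type, with between 943 and 1589 normalized counts in p0-1, between 1629.7 and 2159 in p2 and between 1177 and 1469 in p3, below all pMN samples (between 3079.5 and 3483 normalized counts) and far above NMPs. The differences to pMN were 1.29 ± 0.11, 0.77 ± 0.07 and 1.33 ± 0.07, all within the threshold of 2. The Dbx1 element 59780 bp upstream ran the other way, with between 393 and 1387 in p0-1, between 312 and 626 in p2, between 189 and 253 in pMN and between 32.4 and 60.5 in p3, and was called between pMN and p3 (2.02 ± 0.14). By contrast the Rarb element 158101 bp upstream had between 834 and 1622 in p0-1, between 1428 and 1684 in p2 and between 1007 and 1729 in p3, overlapping pMN throughout.

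The 2 elements called against p2 were chosen to be named after their values were seen. They lay in introns of Sgk1, a kinase gene (2.10 ± 0.16), and Esrrg, an orphan nuclear receptor gene (2.02 ± 0.16), where p2 had between 94.1 and 218 normalized counts for Sgk1 and between 29.2 and 69.4 for Esrrg. The pMN samples had between 585 and 850.1 and between 202 and 319.9. The largest differences to p3 were near Dnajc24 (3.38 ± 0.23), Nek9 (3.16 ± 0.22), Tex47 (3.16 ± 0.22) and Vwc2 (3.15 ± 0.19). At the Dnajc24 element NMPs had a mean of 3.55 normalized counts, p3 between 8.07 and 34.5 and pMN between 219 and 462. In the other direction an element near 4933417O13Rik, in an intron of Kcnq1, was lower in pMN (-3.37 ± 0.30), with between 219.9 and 702 in p3 and between 19.5 and 76.7 in pMN.

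**Figure D4:**
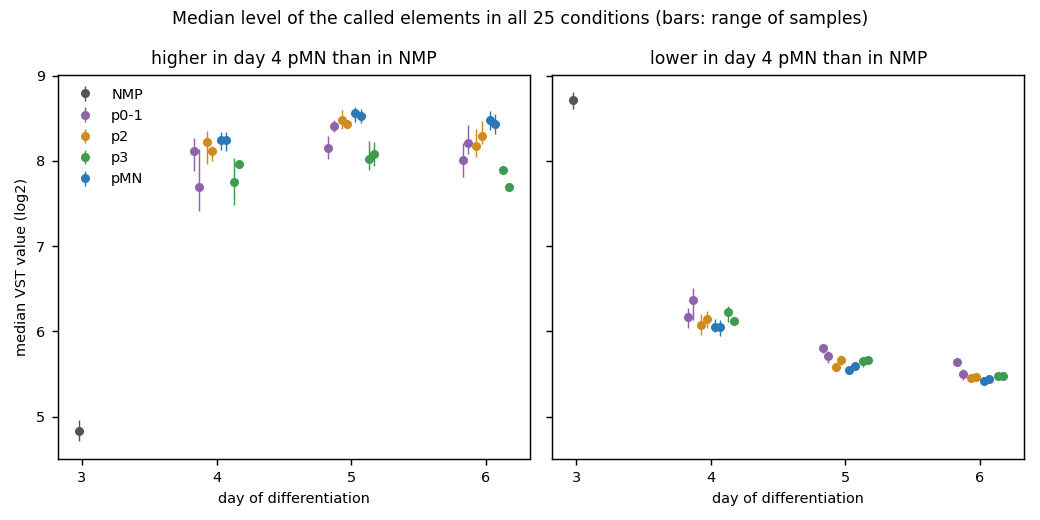
Median VST value (log2) of the elements called higher (left) or lower (right) in day 4 pMN than in NMPs, in all 25 conditions by day of differentiation and NP type. Points are the mean of the sample medians and bars the range of samples. Opened elements rise from 4.83 in NMPs to 8.24 in both day 4 pMN conditions, and closed elements fall from 8.71 to 6.06 and on to 5.42 and 5.44 in day 6 pMN.

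Most elements stayed away from their NMP level in pMN of later days, though many changed further. The median of opened elements was 8.56 and 8.53 in the 2 pMN conditions at day 5 and 8.48 and 8.43 at day 6, and closed elements went on from 6.06 at day 4 to 5.55 and 5.60 at day 5. Of the 5075 opened elements, 96 at day 5 and 333 at day 6 had a pMN mean within 1 of the NMP mean or below it, and of the 2004 closed ones 11 and 28 had one within 1 or above it. Relative to day 4, 491 opened elements were more than 1 lower and 673 more than 1 higher at day 5, and 1042 and 937 at day 6, while of the closed ones 165 at day 5 and 434 at day 6 were more than 1 lower still. Since the elements were selected on day 4 values, these counts are a description. At the distal Olig2 element later pMN had between 3590.2 and 3888 normalized counts at day 5 and between 4411 and 5181 at day 6, and at that of Olig1 between 1829.8 and 2202 and between 2254 and 2728, all above day 4. The Cdx2 element upstream of the TSS, still at a median of 70.1 in day 4 pMN, had between 4.51 and 7.99 at day 5, and the distal Cyp26b1 element went back from a median of 153 at day 4 to between 26.9 and 34.7 at day 6.

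Motif content of the central 300 bases differed between opened and closed elements outside promoters. SOX matches were in 14.5% of 5026 opened, 3.82% of 17488 uncalled and 3.12% of 1827 closed distal elements, and in 7.43% of all 111638 elements. Motif counts depend on base composition, so the shares were also taken among windows with a GC content of 45 to 50%. There SOX matches were in 15.3% of 1712 opened, 5.63% of 2595 uncalled and 5.49% of 346 closed elements. TGATTGA, a PBX motif, showed the same direction (5.43%, 3.20% and 3.18%), with 4.12% in all elements at any GC content. For TAATTA the excess in opened elements, 9.77% against 4.35% and 4.93% (7.85% in all elements), was not seen at matched GC, where the shares were 7.65%, 7.55% and 8.67%.

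Closed elements held other motifs. At matched GC, TCF/LEF matches were in 19.4% of closed, 11.9% of uncalled and 12.9% of opened elements (12.4% of all elements), AP-1 matches in 11.0%, 6.28% and 5.43% (6.15% of all), and the octamer ATGCAAAT, bound by OCT4 and other POU factors, in 4.62%, 2.81% and 1.75% (2.30% of all). The T-box motif AGGTGTGA was in 3.18% of closed, 0.925% of uncalled and 0.643% of opened elements (1.06% of all). The shares of all elements are at any GC content and include promoters. Over tested distal elements at matched GC they were 12.8% for TCF/LEF, 6.32% for AP-1, 2.56% for the octamer and 0.989% for T-box. The closed windows with a match were few, 16 for the octamer and 11 for T-box. The E-box was in 22.2% of opened, 18.4% of uncalled and 17.3% of closed elements at matched GC, but without matching the closed elements had the highest share, 24.7% (21.1% of all elements). GLI (0.816% of opened, 0.328% of closed, 0.392% of all) and DR5 matches (0.617%, 0.219% and 0.327%) were rare. These shares describe windows that share libraries and base composition, and no test was made.

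**Figure D5:**
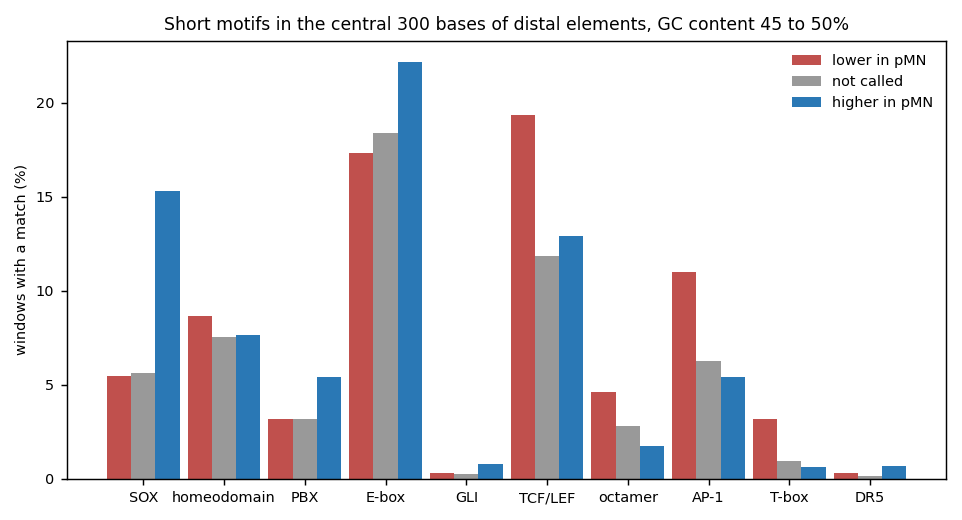
Share of 300-base windows with at least 1 match to a motif, in percent, for distal elements with a GC content of 45 to 50% that were lower (red, 346), not called (gray, 2595) or higher (blue, 1712) in day 4 pMN than in NMPs. SOX matches are in 15.3% of the higher against 5.49% of the lower elements, and TCF/LEF matches in 19.4% of the lower against 12.9% of the higher.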

How the data were processed

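CaTS-ATAC libraries from 67 samples (3 of NMPs, 6 of day 4 pMN) were analysed from 1 deposited table. The authors aligned reads to mm10 with the nf-core atacseq pipeline, called peaks with MACS, kept consensus peaks found in at least 2 replicates, counted reads with featureCounts, applied the DESeq2 variance-stabilizing transformation and annotated elements with HOMER. The deposited values are thus on a log2 scale and normalized for depth. The table held values for 111638 of 133549 annotated elements, and the other 21911 were not used here.

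Inverting the transformation gave normalized counts, and division by the recovered unit of 1 read gave whole numbers for 100% of values under 1000 reads (tolerance 1e-06). Elements with a mean above 100 normalized counts over the 9 samples were tested on the VST scale with limma 3.58.1 (R 4.3.3, variance trend, Benjamini-Hochberg adjustment over all tested elements), with calls at an adjusted p under 0.01 and a difference above 2. The study's own thresholds were set on fold changes of counts, and the same rule on normalized counts called 7667 elements. The GC correction removed each sample's mean deviation in 20 bins of GC content by 10 of level. Windows of 300 bases came from GRCm38. Tables were made with Python 3.11.15, numpy 2.4.6 and pandas 2.3.3, and the fits were tested on simulated data.

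For each named gene the element nearest the TSS and the tested element with the largest difference were described, together with the 10 largest changes in each direction and the leading elements of the day 4 comparisons, and further elements of these genes were added after values were seen. Some results of this rule are not reported here. The members, gene lists and motifs were chosen with earlier results of these data known. Same-numbered samples deviated together between pMN at 100 and 500 nM SAG (r 0.759 to 0.784), between p0-1 and pMN (0.296 to 0.768) and between p2 and pMN (0.694 to 0.821), so the numbers pair them. Between p3 and pMN most same-numbered pairs did so too (-0.010 to 0.689, median 0.486, against a median of -0.145 for different numbers), and the methods describe NP types sorted from the same dish, so that the block was also fitted. Between NMPs and pMN the same-numbered values were weaker (-0.092 to 0.283, median 0.236, against a median of -0.065 for different numbers). Those of replicate 1 were below 0, so whether the numbers pair NMPs with pMN is not settled. Alternatives were other scalings, filters, thresholds and a replicate block, and leaving out each sample.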

Additional observations from a re-analysis of the deposited data

Results flagged for a closer look

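The change from NMPs differed between pMN and the other NP types of day 4 by a direct test of pMN against each type (limma, adjusted p under 0.01 and a difference above 2), with the NMP samples common to both sides. It differed at 113 elements for p0-1, at 2 for p2 and at 249 for p3. The 6 day 4 pMN samples were checked for a sample far from the others at 136 of the elements and shares reported here. In 0 of the 136 was such a sample found, at a limit that would mark about 1 in 20 among independent samples. Same-numbered samples of both SAG concentrations deviated together, so the check could hardly mark a culture that differed at both. The samples of NMPs and of the other NP types were not checked.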

How the results depend on the processing

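A total of 7079 elements was called between NMPs and pMN, and 7079 with the replicate block, which again gave 5075 higher and 2004 lower. The block left 0 calls between SAG concentrations, 113 for p0-1 and 2 for p2, and gave 261 rather than 249 for p3, and changed no call of a named element. With no filter on low values 19571 were called (12600 higher, 6971 lower), and at a difference above 1 there were 14764 (8146 lower). Centering left 1140 lower, and the replicate block with the GC and level correction 2990 higher. Leaving out 1 sample at a time gave 6861 to 7401 calls, 4730 to 5691 higher and 1456 to 2256 lower. At a difference above 1, pMN differed from p0-1 at 1067 elements, from p2 at 68 and from p3 at 2143. Leaving out 1 sample gave 93 to 145, 0 to 4 and 203 to 294 in these comparisons and 0 between SAG concentrations, and the count for p2 was 0 without p2 10 nM replicate 2, 1 without p2 100 nM replicate 2 or pMN 500 nM replicate 1, and 4 without p2 100 nM replicate 3. Of the named elements, 81 were called and 54 were not. All 81 were called with the block, 78 with voom, 77 after centering and 65 with the GC correction, where the Elavl4 promoter element turned to -0.12, and the cause was not tested. That element was also between 1.94 and 2.00 without any of 5 samples. Elements near Tfcp2l1, Etv4, Naa30 and Cyp26b1 fell under the filter when some samples were left out. Among the 54, the sign changed for 12 with voom, 11 after centering and 12 with the GC correction. The promoter share differed by -2.78 to -3.88 points without 1 sample. The alternatives that leave out samples of the day 4 types, that correct named elements for GC and that count differences of any size between SAG concentrations were chosen after seeing the data. The 3 NMP samples limit the precision of every difference, and 5856, 5665 and 3068 elements without a read in them set a floor for opened elements.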
